A study of Homo sapiens with 8 samples.

Results

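The transcription factor ATF4 and 3 of its known target genes, ASNS, ULBP1 and VEGFA, are described here in THP-1, an established human cell line from acute monocytic leukaemia that carries the fusion gene MLL-AF9. The genes were picked by symbol, with results of these data already known, and every probe of each was taken: 4 genes, each with 1 probe, out of 14884 named genes. They were picked partly for their changes with the 2 compounds, so those changes are given as a description, with no test.

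Cells had 5 h of IPA-3 at 6 µg/mL, of FRAX-597 at 2 µg/mL, or of an equal volume of the solvent DMSO, and total RNA was hybridised to 1-colour arrays. IPA-3 is an allosteric inhibitor and FRAX-597 an ATP-competitive inhibitor of the p21-activated kinases. The study, on PAK1 as a drug target in myeloid leukaemia, deposited 8 arrays: 4 for DMSO and 2 for each compound. Nothing in the labels tells whether replicates are separate cultures, so a p-value here reflects only how these arrays differ, possibly for technical reasons, and the number of arrays limits the precision.

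DMSO 1 and 2 and both IPA-3 arrays, the first array set, had medians over 53617 probes of 5.51 to 5.55 (log2), and DMSO 3 and 4 and both FRAX-597 arrays, the second set, had 6.00 to 6.05. The sets were recognised from the values and carry no label. Each compound was therefore compared with the DMSO arrays of its own set, 2 arrays against 2. The compounds had different doses and different control arrays, so their changes are set side by side without a test between them. Monocytic identity was checked on 8 of 12 listed markers; SPI1, the factor that drives myeloid fate, lay between 9.08 and 9.42 and the lysosomal glycoprotein CD68 between 11.67 and 12.09 on all arrays. Lower were the lipopolysaccharide co-receptor CD14 (6.27 to 7.44), the granule enzyme MPO (5.82 to 6.46), and the calcium-binding proteins S100A8 (5.68 to 7.29) and S100A9 (6.04 to 7.15), nearer the array medians. Of the 12 markers, 4 had no named probe, CD33, ITGAM, FCGR1A and CEBPA, and were not analysed here.

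ATF4 is a basic leucine zipper factor that carries out the integrated stress response. Stress kinases phosphorylate the initiation factor eIF2, which slows general protein synthesis but favours translation of ATF4 mRNA. ATF4 protein then switches on genes for amino acid synthesis and uptake, tRNA charging and stress control. Much of its control is translational, so a level of ATF4 mRNA is not a level of ATF4 protein. ASNS makes asparagine from aspartate and glutamine, and leukaemia cells with little of it are sensitive to asparaginase. ULBP1 is a cell-surface ligand for NKG2D, an activating receptor of natural killer cells and T cells. VEGFA is the main secreted angiogenic factor and answers to hypoxia as well as to ATF4.

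ATF4 and its partners bind a composite element whose core is searched here as TGATGNAA, on both strands, and a cyclic-AMP element core, searched as TGACG. In the windows shown no match of one motif overlapped a match of the other. Promoter windows ran from 250 bases before to 50 bases after each annotated start, in RefSeq sequence of GRCh38.p14. ASNS and ULBP1 are shown whole as examples: both levels were higher with both compounds and each window holds at least 1 core. Capitals mark TGATGNAA or TGACG on either strand, so that CGTCA in capitals is TGACG on the opposite strand.
ASNS, chr7:97872359-97872658, minus strand: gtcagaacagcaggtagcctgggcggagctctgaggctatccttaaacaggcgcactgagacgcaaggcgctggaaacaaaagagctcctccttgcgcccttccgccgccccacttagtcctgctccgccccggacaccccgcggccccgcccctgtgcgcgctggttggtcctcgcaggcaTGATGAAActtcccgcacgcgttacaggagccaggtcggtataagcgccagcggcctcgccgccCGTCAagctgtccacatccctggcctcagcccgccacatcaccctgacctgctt
ULBP1, chr6:149963693-149963992, plus strand: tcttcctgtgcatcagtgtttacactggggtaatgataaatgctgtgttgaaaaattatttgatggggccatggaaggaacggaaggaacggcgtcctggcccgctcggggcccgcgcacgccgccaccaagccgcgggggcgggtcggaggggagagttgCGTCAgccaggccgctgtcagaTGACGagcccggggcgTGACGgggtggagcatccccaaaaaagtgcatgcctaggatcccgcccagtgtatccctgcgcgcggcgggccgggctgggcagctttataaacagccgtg

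The ASNS window held TGATGAAA 68 bases upstream of the start, and TGACG on the opposite strand from 4 bases upstream, across the start. A second annotated ASNS start has a window at chr7:97872116-97872415 without TGATGNAA. The ULBP1 window held 3 TGACG cores, at 89, 67 and 51 bases upstream, and no TGATGNAA. Neither of the 2 ATF4 windows, which overlap almost fully, held TGATGNAA, and each held 2 TGACG cores. VEGFA had no window in the promoter reference used here, so it was not searched for either motif. TGATGNAA was found in 3.62% of 35116 windows of this length and TGACG in 24.6%, so the second motif is common. A match is a stretch of letters, not a measured binding site.

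ATF4 itself had the smallest difference of the 4 genes with each compound. Its deposited value was 9.74 in DMSO 1 and 9.72 in DMSO 2, against 10.18 in IPA-3 1 and 10.05 in IPA-3 2. Both IPA-3 arrays lay above both DMSO arrays, and the mean difference was 0.39 on the log2 scale (SE of the fit 0.10), a 1.31-fold level. In the second set it was 9.69 in DMSO 3 and 9.59 in DMSO 4, against 10.21 in both FRAX-597 arrays. The mean difference was 0.57 (SE 0.10), a 1.48-fold level, and the 2 FRAX-597 arrays differed by under 0.01.

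ASNS was near-identical between replicates in the first set and spread in the second. It was 7.40 in both DMSO 1 and DMSO 2, 8.23 in IPA-3 1 and 8.21 in IPA-3 2. The difference of 0.82 corresponds to a 1.77-fold level; its SE of 0.29 is large beside the SD of 0.01 (n = 2) in each group because the fit shares one spread per gene with the second set. There ASNS was 8.11 in DMSO 3, 7.66 in DMSO 4, 9.65 in FRAX-597 1 and 8.71 in FRAX-597 2. Both FRAX-597 arrays lay above both DMSO arrays by at least 0.59, with a mean difference of 1.29 (SE 0.29), a 2.44-fold level. Without FRAX-597 1 the difference was 0.82.

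ULBP1 had the largest difference of the 4 genes with IPA-3, from the lowest controls. It was 4.78 in DMSO 1 and 5.13 in DMSO 2, both under the array medians, against 6.39 in IPA-3 1 and 6.76 in IPA-3 2, both above them. The difference was 1.62 (SE 0.56), a 3.08-fold level. DMSO 1 and 2 lay not far above the lower quartile of all probes (4.15 and 4.14) and could be near background, which leaves the size of this difference uncertain. In the second set ULBP1 was 6.40 in DMSO 3 but 5.16 in DMSO 4, and 8.33 in FRAX-597 1 but 6.65 in FRAX-597 2. The mean difference was 1.71 (SE 0.56), a 3.28-fold level, yet FRAX-597 2 lay only 0.26 above DMSO 3. The difference was 0.87 without FRAX-597 1, 1.09 without DMSO 4, and 2.55 without FRAX-597 2.

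VEGFA had the largest difference of the 4 genes with FRAX-597. In the first set it was 6.41 in DMSO 1, 6.54 in DMSO 2, 6.99 in IPA-3 1 and 6.81 in IPA-3 2, a difference of 0.42 (SE 0.24) and a 1.34-fold level. With all 4 DMSO arrays as controls of IPA-3 this difference turned to -0.24, because VEGFA was high in DMSO 3 and 4. It was 7.45 in DMSO 3, 8.16 in DMSO 4, 9.65 in FRAX-597 1 and 10.06 in FRAX-597 2. Both FRAX-597 arrays lay above both DMSO arrays by at least 1.49, and the mean difference of 2.05 (SE 0.24) is a 4.14-fold level.

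For all 4 genes, then, both arrays of each compound lay above both DMSO arrays of the same set. Over all 14884 genes this was so for 19.3% with IPA-3 and 13% with FRAX-597. The 4 genes were picked on these comparisons, so nothing is read from that count. The median change over all genes was -0.02 in each comparison.

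**Figure D1:**
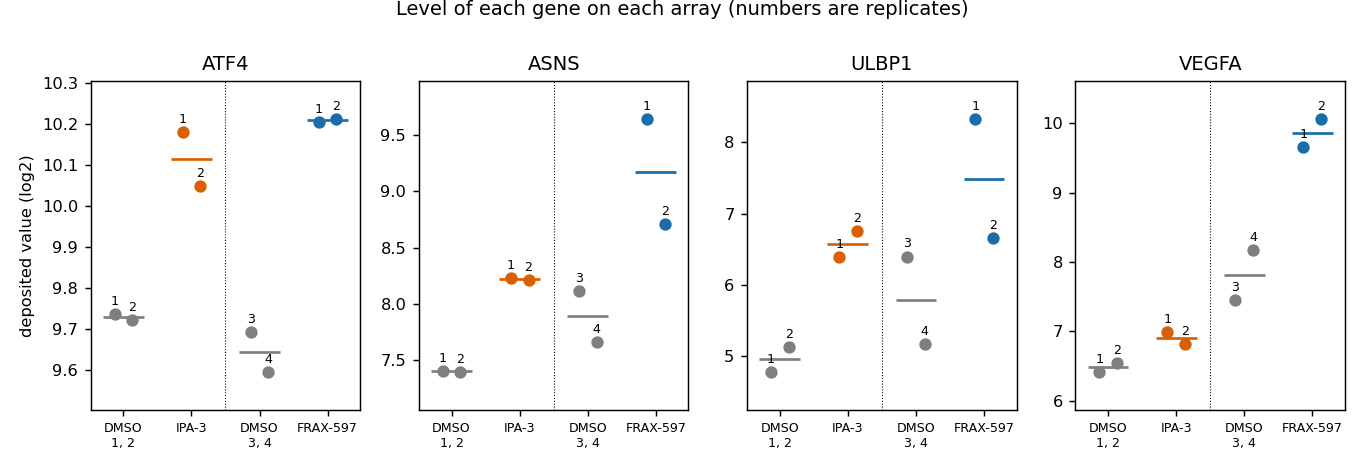
Deposited log2 value of ATF4, ASNS, ULBP1 and VEGFA on each of the 8 arrays, in 4 panels with separate vertical axes; points are arrays, numbers are replicates, horizontal lines are means of 2 arrays, and the dotted line parts the 2 array sets. ASNS and ULBP1 are higher in DMSO 3 than in DMSO 4 and in FRAX-597 1 than in FRAX-597 2, whereas VEGFA is lower in both.

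The 4 conditions were also put in order after each array's median over all probes was subtracted, since the deposited scales of the sets differ. ATF4 was highest with IPA-3 (4.58 ± 0.11, SD, n = 2), then in DMSO 1 and 2 (4.22 ± 0.01), with FRAX-597 (4.19 ± 0.02) and in DMSO 3 and 4 (3.61 ± 0.08). The middle pair lay side by side, although their arrays did not overlap. This order of ATF4 depends on the subtraction. On the deposited values its mean was 10.21 with FRAX-597, 10.115 with IPA-3, 9.73 in DMSO 1 and 2 and 9.64 in DMSO 3 and 4. ASNS was highest with FRAX-597 (3.15 ± 0.69, SD, n = 2) and IPA-3 (2.68 ± 0.03), whose arrays overlapped, and lower in DMSO 1 and 2 (1.89 ± 0.00) and DMSO 3 and 4 (1.85 ± 0.33), which overlapped as well. ULBP1 had the same upper and lower pairs: FRAX-597 (1.47 ± 1.22, SD, n = 2) overlapped IPA-3 (1.04 ± 0.24), and DMSO 3 and 4 (-0.26 ± 0.89) overlapped DMSO 1 and 2 (-0.56 ± 0.25). VEGFA stood apart with FRAX-597 (3.83 ± 0.26, SD, n = 2); DMSO 3 and 4 (1.77 ± 0.49) overlapped IPA-3 (1.36 ± 0.14), and DMSO 1 and 2 were lowest (0.97 ± 0.09).

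Between the control pairs, the deposited values of DMSO 3 and 4 lay above DMSO 1 and 2 by a median of 0.48 over all genes. Relative to that shift, ATF4 was lower in DMSO 3 and 4 by a difference of -0.56, ASNS was level (0.01), ULBP1 was higher by 0.35 and VEGFA by 0.85. Without the shift the difference for ATF4 was -0.08. Whether a single shift holds at the high level of ATF4 was not tested.

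The replicate arrays of the second set differed in a direction that parted VEGFA from the other targets. DMSO 3 exceeded DMSO 4 by 0.45 for ASNS and 1.23 for ULBP1, and FRAX-597 1 exceeded FRAX-597 2 by 0.94 and 1.68. For VEGFA the same differences were -0.72 and -0.41. For ATF4 they were 0.10 and -0.01, so the spread in ASNS and ULBP1 had no counterpart of that size in ATF4 mRNA. The 8 measured monocytic markers were higher in DMSO 3 than in DMSO 4 and in FRAX-597 1 than in FRAX-597 2 for 8 of 8 genes. This was so for 33.4% of all 14884 genes, and for 22 of the 32 other ATF4 pathway genes described below (68.8%). Their mean level was 8.78 in DMSO 3, 8.15 in DMSO 4, 8.67 in FRAX-597 1 and 8.12 in FRAX-597 2, against 8.47 to 8.56 in the first set. Lysozyme, LYZ, followed the array number and not the compound: 10.79 in DMSO 3, 9.71 in DMSO 4, 10.69 in FRAX-597 1 and 9.80 in FRAX-597 2. The part of this difference in the levels of ASNS and ULBP1 was not tested.

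**Figure D2:**
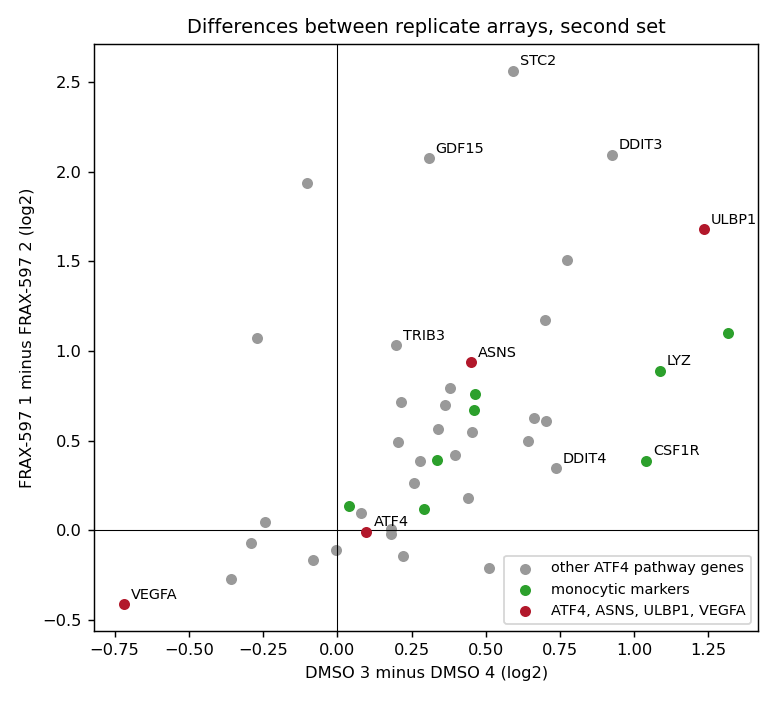
Difference between replicate arrays of the second set, DMSO 3 minus DMSO 4 (horizontal, log2) against FRAX-597 1 minus FRAX-597 2 (vertical, log2), for the 4 genes (red), 32 other genes of the ATF4 pathway (grey) and 8 monocytic markers (green). ULBP1, ASNS and the 8 markers lie at positive values on both axes and VEGFA at -0.72 and -0.41.

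Other known genes of the ATF4 programme were higher with FRAX-597 as well, mostly without passing a test over all genes. The list, 32 measured genes besides the 4, was drawn from general knowledge with earlier results of these data known. With FRAX-597, 31 of 32 lay above 0 (45.3% of all genes did), with a median change of 0.74 against -0.02 over all genes, and in 24 of 32 (75%) both FRAX-597 arrays lay above both DMSO arrays, against 13% of all genes. Of the 32, 1 rose at a limma adjusted p under 0.05, against 0.121% of all genes: DDIT4 (REDD1), an inhibitor of mTORC1, which rose by 2.12 (SE 0.25; adjusted p = 0.0306). DDIT4 was called in only 9 of 16 runs with 1 value per gene, the main run included. Its call was lost with the second set fitted alone, where 0 genes of the list were called. At an unadjusted p under 0.05 the count was 20 higher (62.5%), against 4.04% of all genes, and 0 lower, against 3.61%. This count, too, depends on the spread shared between the sets. With the second set fitted alone, 15 of 32 had an unadjusted p under 0.05 in limma, against 606 of 14884 genes.

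With IPA-3, none of the 32 passed in limma, against 0.0336% of all genes. At an unadjusted p under 0.05 there were also 0, against 3.1% of all genes higher and 4.11% lower. That 0 depends on the spread shared with the second set. With the first set fitted alone, 9 of 32 had an unadjusted p under 0.05 in limma, against 2244 of 14884 genes. With the replicate block described at the end the counts were 7 of 32 and 2093 of 14884. Of the 32, 23 lay above 0 (44.4% of all genes did) with a median of 0.11, and in 15 of 32 (46.9%) both IPA-3 arrays were above both DMSO arrays, against 19.3% of all genes. The values for single genes ran from -0.41 to 0.41, below those of ASNS and ULBP1 in the same comparison.

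Amino acid synthesis genes had a median change of 0.74 with FRAX-597 over the 8 measured besides ASNS. All 8 lay above 0 (45.3% of all genes did), and 0 were called in limma, against 0.155% of all genes. CTH, which makes cysteine from cystathionine, changed by 1.63 (SE 0.31; limma adjusted p = 0.192) and by 0.38 with IPA-3. PSAT1, of serine synthesis, changed by 1.07 (SE 0.16; limma adjusted p = 0.0752) and by 0.28 with IPA-3. ALDH18A1, ALDH1L2, GOT1, GPT2 and MTHFD2 and all 10 listed amino acid transporters had no named probe and were not analysed here.

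The tRNA synthetases of the list, enzymes that load amino acids onto tRNAs, gave a similar picture. With FRAX-597, 12 of 12 lay above 0, against 45.3% of all genes, with a median of 0.68. None was called, against 0.155% of all genes, so 0 of 12 is near that share. WARS1, for tryptophan, changed by 1.16 (SE 0.24; limma adjusted p = 0.215), CARS1, for cysteine, by 0.86 (SE 0.25; adjusted p = 0.396) and AARS1, for alanine, by 0.85 (SE 0.12; adjusted p = 0.0573). With IPA-3 these were 0.20, 0.29 and -0.00, and GARS1, for glycine, had 0.25.

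Among the stress effectors, TRIB3, a pseudokinase that feeds back on ATF4, changed by 2.05 with FRAX-597 (SE 0.30; limma adjusted p = 0.0695) and by 0.36 with IPA-3. DDIT3, which encodes CHOP, a pro-apoptotic partner of ATF4, went from 7.13 and 6.21 in DMSO 3 and 4 to 9.26 and 7.17 in FRAX-597 1 and 2. Its change was 1.55 (SE 0.61; adjusted p = 0.611), with FRAX-597 2 only 0.04 above DMSO 3, and -0.01 with IPA-3. STC2, a secreted glycoprotein of stress, named after its values were seen, was 9.61 in FRAX-597 1 and 7.05 in FRAX-597 2 against 6.99 in DMSO 3. DDIT3 and STC2 thus shared with ULBP1 a large gap between the 2 FRAX-597 arrays. The 1 gene of the 32 below 0 with FRAX-597, VLDLR, a lipoprotein receptor, had -0.03, and -0.41 with IPA-3.

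**Figure D3:**
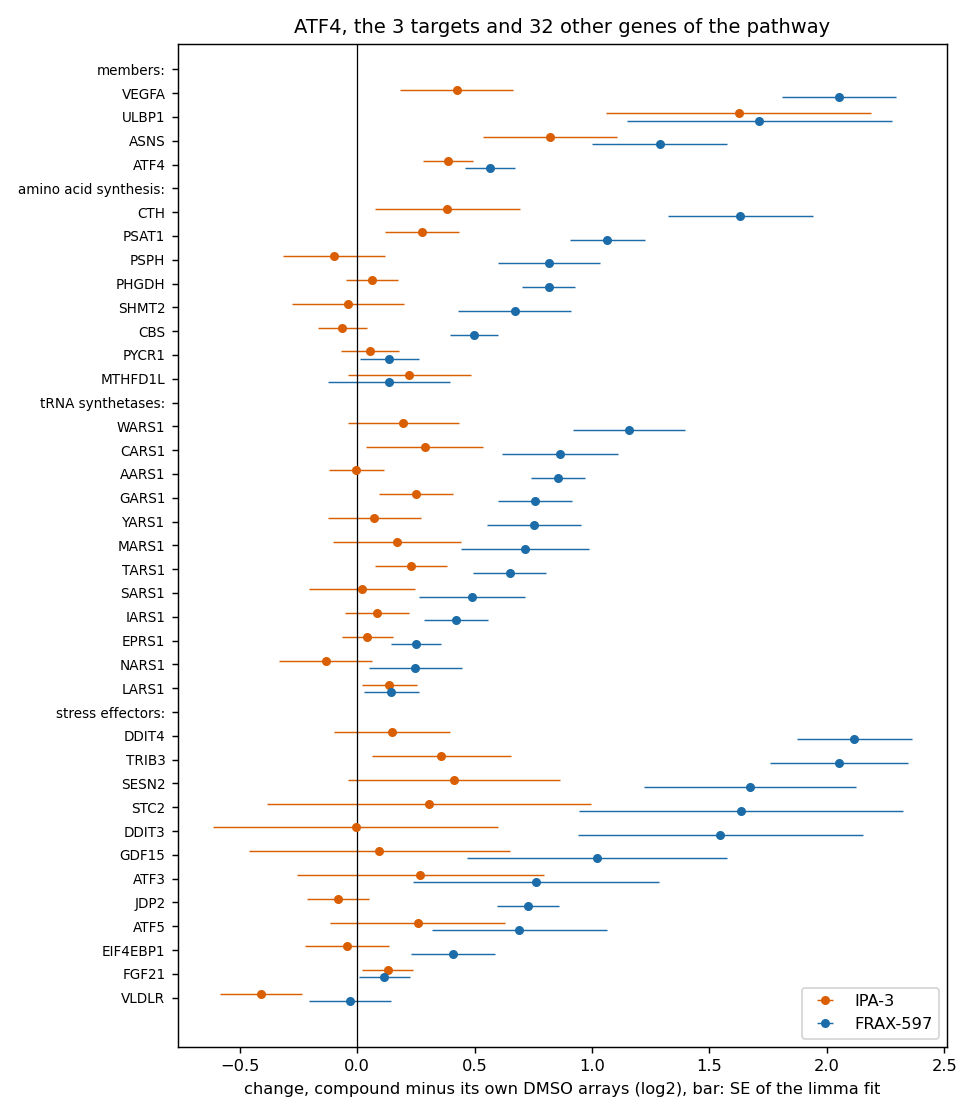
Change of each gene on the log2 scale, compound minus the DMSO arrays of its own set, for the 4 genes and 32 other genes of the ATF4 pathway; points are differences of means of 2 arrays and bars the SE of the limma fit, orange for IPA-3 and blue for FRAX-597. The changes with FRAX-597 reach 2.12 (DDIT4), while with IPA-3 the 32 other genes stay between -0.41 and 0.41.

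Upstream of ATF4, the mRNAs of the eIF2 kinases and their regulators had changes between -0.29 and 0.05. Of 6 measured, 0 were called in limma, against 0.0336% of all genes for IPA-3 and 0.155% for FRAX-597. None had an unadjusted p under 0.05 (3.1% of all genes were higher and 4.11% lower with IPA-3, 4.04% and 3.61% with FRAX-597). With IPA-3 all 6 lay below 0, where 44.4% of all genes lay above 0. In 5 of them both IPA-3 arrays lay below both DMSO arrays, a share not counted over all genes. With FRAX-597, 4 lay below 0 (45.3% of all genes lay above 0), and both arrays were lower in 2 (33.3%, against 17.8%). EIF2AK1, the haem-regulated kinase, had -0.18 with IPA-3 and -0.17 with FRAX-597, and GCN1, an activator of the kinase GCN2, had -0.29 and -0.16. EIF2AK2, the kinase PKR, had -0.23 and -0.24. The subunits of eIF2 and eIF2B were not among the named probes, and kinase activity is not read by these arrays.

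Other bZIP factors gave 0 calls in limma among 12 besides ATF4, against 0.155% of all genes for FRAX-597 and 0.0336% for IPA-3. With FRAX-597 all 12 lay above 0 (45.3% of all genes did), and both arrays exceeded both DMSO arrays in 5 (41.7%, against 13%). At an unadjusted p under 0.05 in limma, 2 were higher (16.7%, against 4.04%), of which DDIT3 also counts in the ATF4 list above. With IPA-3, 8 lay above 0, both arrays were higher in 4 (33.3%, against 19.3%) and 0 had such a p. CREM, a cyclic-AMP response factor, changed by 1.62 with FRAX-597 (SE 0.22; limma adjusted p = 0.0573), with 8.47 and 7.89 in FRAX-597 1 and 2 against 6.78 and 6.34 in DMSO 3 and 4, and by 0.42 with IPA-3. ATF3, a stress-induced relative, was 8.26 in FRAX-597 1 but 6.33 in FRAX-597 2, below both DMSO arrays (6.48 and 6.59). NFE2L2, the antioxidant factor NRF2, had 0.51 with IPA-3 and 0.60 with FRAX-597, neither called.

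ULBP1 was set beside the other ligands of NKG2D. None of the 6 measured was called by limma for either compound, and 0 had an unadjusted p under 0.05. Over all genes, 0.0336% were called with IPA-3 and 0.155% with FRAX-597. At an unadjusted p under 0.05 in limma, 3.1% were higher and 4.11% lower with IPA-3, and 4.04% and 3.61% with FRAX-597. For 6 genes a count of 0 is near those shares, so it does not set ULBP1 apart. ULBP2 had 0.56 with IPA-3 (SE 0.27; limma adjusted p = 0.724) and 0.36 with FRAX-597 (SE 0.27; adjusted p = 0.875), and its promoter window, like that of ULBP1, held 3 TGACG cores, but also TGATGNAA on the opposite strand, which the ULBP1 window lacked. MICB, a stress-induced ligand related to MHC class I, had -0.06 and -0.26. The median over these 6 was 0.07 with IPA-3 and -0.05 with FRAX-597, against 1.62 and 1.71 for ULBP1.

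In the VEGF family, VEGFC, a ligand of lymphatic vessel growth, was 6.16 and 6.04 in DMSO 1 and 2 and 7.35 and 7.40 in IPA-3 1 and 2, a change of 1.27 (SE 0.19; limma adjusted p = 0.182). With FRAX-597 it had -0.40 (SE 0.19; adjusted p = 0.716), with both arrays below both DMSO arrays, as in 17.8% of all genes. VEGFA and VEGFC thus had their larger change with different compounds, but neither change of VEGFC passed. NRP2, a co-receptor, was 9.12 in FRAX-597 1 and 7.13 in DMSO 3 but 5.62 in FRAX-597 2 and 5.46 in DMSO 4, so it followed the replicate arrays, as ULBP1 did in part. Of the 8 measured besides VEGFA, 0 were called, against 0.0336% of all genes for IPA-3 and 0.155% for FRAX-597. At an unadjusted p under 0.05 in limma there were 2 with IPA-3 (3.1% of all genes were higher) and 1 with FRAX-597 (4.04% were higher), all higher.

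**Figure D4:**
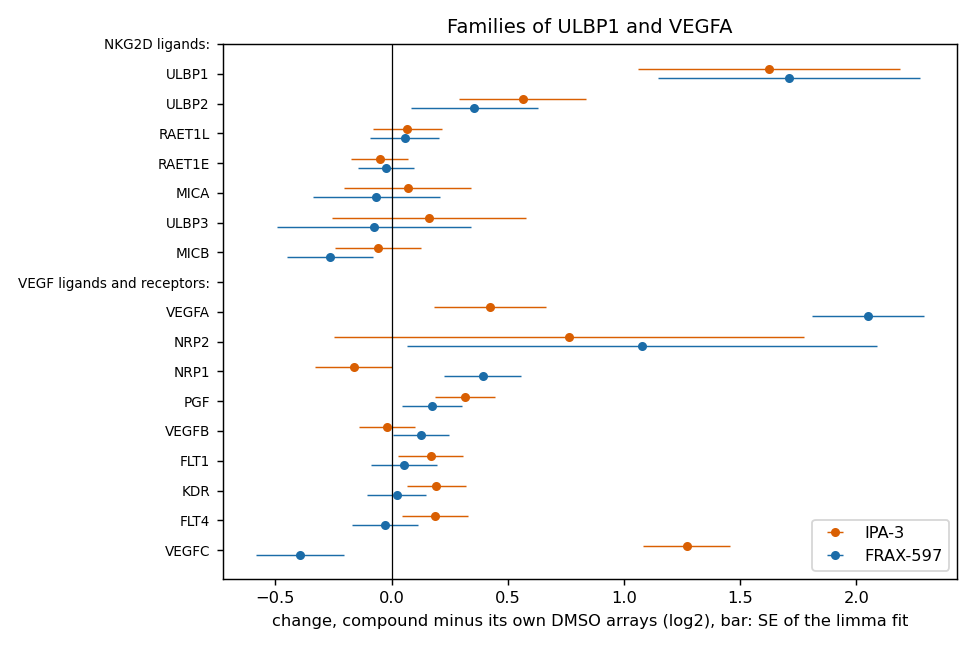
Change on the log2 scale, compound minus the DMSO arrays of its own set, for 7 measured NKG2D ligands and 9 measured VEGF ligands and receptors; points are differences of means of 2 arrays and bars the SE of the limma fit, orange for IPA-3 and blue for FRAX-597. ULBP1 lies at 1.62 with IPA-3 and 1.71 with FRAX-597, VEGFA at 2.05 with FRAX-597 and VEGFC at 1.27 with IPA-3.

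VEGFA is also a target of the hypoxia-inducible factors, and 9 of 17 listed hypoxia genes were measured. With FRAX-597 their median was 0.04, 0 were called in limma and 0 had an unadjusted p under 0.05. Over all genes 0.155% were called, and 4.04% were higher and 3.61% lower at that unadjusted p. For 9 genes these counts of 0 are near those shares. NDRG1, a stress-responsive differentiation gene, had 0.38 (SE 0.23; limma adjusted p = 0.832), ADM, adrenomedullin, -0.28 and KDM3A, a histone demethylase, 0.21. With IPA-3 the median was -0.08, and LDHA, lactate dehydrogenase, had -0.39 (SE 0.12; adjusted p = 0.57). None was called with IPA-3, against 0.0336% of all genes. At an unadjusted p under 0.05 in limma there were 1 higher, ADM (0.34), and 1 lower, LDHA, against 3.1% and 4.11% of all genes. Of the unfolded protein response genes driven by ATF6 and XBP1, 7 of 14 were measured and 0 were called by limma for either compound. At an unadjusted p under 0.05 in limma, 1 was higher with FRAX-597 (4.04% of all genes were) and 2 were lower with IPA-3 (4.11% were). All 7 lay below 0 with IPA-3, where 44.4% of all genes lay above 0. Their median was 0.01 with FRAX-597, where XBP1 itself had 1.08 (SE 0.27; adjusted p = 0.297), and -0.19 with IPA-3, where MANF, a secreted chaperone of the endoplasmic reticulum, had -0.56 (SE 0.10; adjusted p = 0.257).

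Promoter windows were found for 26 of the 32 other pathway genes, and 11 of them (42.3%) held TGATGNAA in at least 1 window, against 4.46% of 27305 genes. Known binding sites of this kind are one reason such genes are listed as ATF4 targets, so this share is no independent observation. TGACG was in 8 of 26 (30.8%), against 28.4% of all genes. Short stretches around the core are shown for 7 synthetases, all those of the list with a match, and for MTHFD1L, of mitochondrial folate metabolism; capitals mark the core, which as TTGCATCA or TTTCATCA lies on the opposite strand.
AARS1, chr16:70289675-70289704, minus strand: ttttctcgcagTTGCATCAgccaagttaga
GARS1, chr7:30594834-30594863, plus strand: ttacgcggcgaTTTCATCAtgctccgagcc
CARS1, chr11:3057407-3057436, minus strand: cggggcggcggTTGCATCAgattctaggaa
TARS1, chr5:33440956-33440985, plus strand: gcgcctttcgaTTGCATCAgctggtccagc
NARS1, chr18:57621804-57621833, minus strand: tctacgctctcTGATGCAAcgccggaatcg
MARS1, chr12:57488053-57488082, plus strand: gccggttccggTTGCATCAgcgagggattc
IARS1, chr9:92293692-92293721, minus strand: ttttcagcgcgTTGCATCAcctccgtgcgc
MTHFD1L, chr6:150866346-150866375, plus strand: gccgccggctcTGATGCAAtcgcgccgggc
The changes with FRAX-597 were 0.85 for AARS1, 0.76 for GARS1, 0.86 for CARS1, 0.65 for TARS1, 0.25 for NARS1, 0.71 for MARS1, 0.42 for IARS1 and 0.14 for MTHFD1L. The other 3 genes with the core, ATF3, JDP2 and FGF21, had 0.76, 0.73 and 0.12. TRIB3, DDIT4 and SESN2, with changes of 2.05, 2.12 and 1.67, held neither motif in their windows.

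Genes whose pattern was most like each of the 4 were found by Pearson correlation over the 8 arrays, after each gene's mean in each array set was subtracted, among genes above the median level. The arrays share sets and controls, so the values are a description. Being picked partly for their changes with the compounds itself raises r among the 4 genes, so nothing is read from those values. ATF4 was most like USP40 (r = 0.99), the probe annotated to MIR637 (0.99), EIF1 (0.98), STXBP5 (0.98) and RASSF8 (0.98); EIF1 is the initiation factor that helps to select start codons. ASNS was most like the Src-family kinase LYN (r = 0.99), SP9 and R3HCC1L (both 0.99). ULBP1 was most like LPIN2 (r = 0.99), RGPD4 and DUSP4 (both 0.98). DUSP4, a phosphatase of MAP kinases, also came near in size, with differences of 1.36 with IPA-3 and 2.19 with FRAX-597. VEGFA was most like the probe annotated to MIR612 (r = 0.99), OGT, which attaches GlcNAc to proteins, and SOS2 (both 0.98). Among the 4 genes themselves, r was 0.97 between ASNS and ULBP1, 0.90 between ATF4 and ASNS, 0.83 between ATF4 and ULBP1, 0.86 between ATF4 and VEGFA, 0.71 between ASNS and VEGFA, and 0.56 between ULBP1 and VEGFA.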

How the data were processed

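The authors deposited log2 expression values per probe, made with Affymetrix Expression Console and Transcriptome Analysis Console, per the submitters' processing notes; versions, summarisation, normalization and the array design's build are not given in the sources used here. Probes were named through gene IDs: 16098 had 1 gene, 0 several and 37519 none here, and all 16098 matched the gene reference for GRCh38.p14. For 779 genes with several probes the one with the highest mean was kept. limma (version 3.58.1, R 4.3.3; lmFit, eBayes) fitted 4 groups (DMSO 1 and 2, IPA-3, DMSO 3 and 4, FRAX-597) over 8 arrays, with Benjamini-Hochberg adjustment over 14884 genes. The procedure was tested on simulated data. The members, gene lists and tests were chosen with earlier results of these data known. Text names the members, called genes of each list, otherwise its 3 largest changes with FRAX-597 and 2 with IPA-3, and the genes most alike; other names illustrate promoters or array differences and were chosen after their values were seen. Lists of markers of other cell types had 3 of 6 T cell, 1 of 5 B cell, 0 of 5 erythroid and 4 of 5 epithelial genes measured. None was called, against 0.0336% of all genes for IPA-3 and 0.155% for FRAX-597. Mean levels per array were 4.96 to 5.56 for T cell and 6.59 to 6.91 for epithelial genes, against 8.12 to 8.78 for monocytic markers. The epithelial KRT18 alone lay at 8.91 to 9.74. PAX5, the B cell gene, was 8.36 in DMSO 3, 6.74 in DMSO 4 and as low as 5.96 in IPA-3 2. Alternatives changed controls, probes, normalization, filter, arrays and replicate block.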

Additional observations from a re-analysis of the deposited data

Results flagged for a closer look

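Among the 4 DMSO arrays, 1 array stood apart from the others (Dixon's test, on the ratio of the gap to the range) for 7 of 42 genes examined; chance gives about 1 in 20. DMSO 3 stood high for PSAT1 (0.856; 11.13 against 10.69 for the nearest), CARS1 (0.867), EIF2AK2 (0.883), NRP2 (0.889; 7.13 against 5.46) and NDRG1 (0.904). DMSO 4 stood low for the macrophage growth factor receptor CSF1R (0.863), and DMSO 1 for EPCAM (0.903), an epithelial marker. The 2 array sets lie on different scales, which widens the range in these ratios. ATF4, ASNS, ULBP1 and VEGFA were among the genes examined and had no such array.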

How the results depend on the processing

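Members' changes kept their sign under each alternative run except VEGFA with IPA-3, which was -0.24 with all 4 DMSO arrays pooled (from 0.42). Leaving out 1 array could not turn a sign, because both compound arrays lay above both DMSO arrays for each member. The filter, the fit of a set alone and the replicate block cannot alter these differences. Nor can the mean of a gene's probes, as each member has 1 probe. Kept signs in those runs are therefore no check. Pooling also gave 0.58 for ASNS and 1.21 for ULBP1 with IPA-3 and 2.71 for VEGFA with FRAX-597. ASNS with IPA-3 was 0.84 after quantile normalization and 0.80 after median centring, beyond its replicate SD of 0.01 but small. Without 1 array, the FRAX-597 difference ran from 0.82 to 1.76 for ASNS and from 0.87 to 2.55 for ULBP1. Genes called over all genes numbered 5 for IPA-3 and 23 for FRAX-597. With pooled controls they were 0 (843 at an unadjusted p under 0.05, limma) and 5. Quantile normalization gave 2 for IPA-3. With a compound's own set fitted alone they were 96 and 0 (606 at an unadjusted p under 0.05, limma). Without 1 array they ran from 0 to 24 for IPA-3 and from 2 to 227 for FRAX-597. ATF4 pathway genes called for FRAX-597 (1) were 2 after quantile normalization, 0 with the second set alone, and 0 to 14 without 1 array; for IPA-3 the count was 0 in every alternative run. The labels pair no samples, but the gap between DMSO 3 and 4 and the gap between FRAX-597 1 and 2 had r = 0.65 over 14884 genes (not independent replicates), against -0.06 for the same gaps in the first set. A replicate block on those pairs, taken from these same values, gave 72 genes for IPA-3, 202 for FRAX-597 and 16 of 32 pathway genes, and left the members' changes as they were.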
